A study of Mus musculus with 16 samples.

Results

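The effect of a Cre-carrying adenovirus, averaged over 2 media, was measured in cultured mouse cardiac fibroblasts, the cells that lay down most of the heart's extracellular matrix. All 16 libraries of the series entered the comparison, the 8 from cells given the Cre virus against the 8 from cells given a green fluorescent protein (GFP) virus. For each gene the effect is the mean of the 2 within-medium differences, taken within cell preparations, and it was fitted for 15285 of the 55414 gene identifiers in the count table, those with enough counts to test. Per the labels, cells at passage 2 from C57BL/6J hearts were starved of serum for 24 h, exposed for 5 h to an adenovirus, and then kept for 48 h in fresh medium with or without transforming growth factor beta (TGF-beta). The 4 groups of 4 libraries are GFP virus, Cre virus, GFP virus with TGF-beta, and Cre virus with TGF-beta. The Cre libraries are labelled as a knockout of Has2 exon 2 and the GFP libraries as controls. Cre is meant to delete a floxed exon, but the labels give the mice as Has2fl/fl in the treatment protocol and as wild type in the genotype field, and they do not settle which holds. Every dish received an adenovirus, so no library shows these cells without one. Cre as a protein, and the dose or anything else in which the 2 virus stocks differed, cannot be told apart from loss of Has2. The Cre libraries all share these conflicting labels, and none is labelled as a separate control of Cre without loxP sites. For TGF-beta and basic fibroblast growth factor the protocol states 20 ng/mL in 1 phrase, so what the cells without TGF-beta received is not clear.

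Replicates 1 to 4 are 4 cell preparations (1 and 4 male, 2 and 3 female), each split over all 4 groups, which gives 8 pairs of a GFP and a Cre library, 4 in each medium. The p-values measure the spread of the libraries around their group and preparation means over these 4 preparations, a spread that also holds any way in which preparations respond differently to the medium. Whether a preparation was 1 heart or several is not stated. Library totals ran from 17.9 to 48.7 M counts, at 24.7 ± 7.61 M in the GFP libraries and 31.7 ± 8.87 M in the Cre libraries (SD, n = 8), and the Cre library was the deeper in 5 of 8 pairs. The 4 libraries of preparation 4 stood apart from the other 12 on the second principal component (20.3% of the variance), so counts without it are given beside the main ones. The fibroblast label was checked against 12 fibroblast markers, whose summed level was 19623 to 42426 counts per M counts (CPM) in GFP libraries and 19010 to 38389 CPM in Cre libraries, and cardiomyocyte markers summed to 3.35 to 16.8 CPM with GFP virus and 3.31 to 23.8 with Cre virus, higher with Cre in 6 of 8 pairs. Of the 13 cardiomyocyte markers Actc1, Nppa and Pln were at 0 counts in all 16 libraries, and 3 were tested, with a median of 0.39 and 0 called. Tnnt2 carried most of that sum, at 49 to 682 counts per library.

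Cells that sense foreign nucleic acid make type I interferons, which act through a receptor, Janus kinases and a transcription factor complex that contains IRF9. This complex binds the interferon-stimulated response element in promoters and switches on a large set of antiviral genes, while type II interferon works through gamma-activated sites. Hyaluronan, the product of the Has2 synthase, is a large glycosaminoglycan of the matrix that fibroblasts make and bind through receptors such as CD44.

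The targeted gene was examined first. In GFP libraries Has2 was at 18, 15.3, 23.2 and 18.4 CPM in preparations 1 to 4, and in Cre libraries at 14.9, 13.5, 16.6 and 13.9. With TGF-beta the values were 15.3, 9.47, 21.9 and 20.7 CPM with GFP virus and 12.5, 11, 25.0 and 17.4 with Cre virus. Has2 was lower with Cre in all 4 preparations without TGF-beta and in preparations 1 and 4 with it, and the groups overlapped in both media. The averaged difference was -0.18 ± 0.11 (log2 ± SE, 95% interval from -0.41 to 0.05) and was not called (adjusted p = 0.42, edgeR's quasi-likelihood test). Of 31 other fits 1 called it, at -0.25, the one with the block within each medium and with each library's trend on transcript length and GC content removed. Over the preparation means the log2 differences were -0.28, 0.02, -0.14 and -0.32, with an exact two-sided sign-flip permutation p of 0.25, where 0.125 is the smallest that 4 preparations allow. Counts cover the whole gene, so a loss of exon 2 reads alone could not be read from them. Has2 has an antisense neighbour, Has2os, and without a known strand setting reads of the 2 may be mixed. Has2os differed by -0.13 (adjusted p = 0.75). Within 2 Mb of Has2 on chromosome 15, in the GRCm38 annotation, 23 of 54 annotated genes were tested and 0 were called, with a median log2 difference of -0.04.

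Across all genes the Cre virus libraries carried more RNA of interferon-induced genes. EdgeR's quasi-likelihood test with Benjamini-Hochberg adjustment called 100 genes higher (0.654% of those tested) and 20 lower (0.131%), 120 in all (0.785%), and 2665 genes had an unadjusted p under 0.05. Of the 100 higher genes 90 were above 0 in 8 of 8 pairs and 9 in 7 of 8, and of all genes tested 2.7% were above 0 and 5.19% below 0 in 8 of 8. Their log2 differences ran from 0.22 to 1.76 with a median of 0.55, and 11 reached 2 fold. The 20 lower genes were all protein coding, 18 of them were below 0 in 8 of 8 pairs, and their falls were small, from 0.22 to 0.42 on the log2 scale. Of these genes, 67 of the 100 higher and 19 of the 20 lower were called in neither medium alone, where the same fit called 25 higher (0.164%) and 1 lower (0.00654%) without TGF-beta and 10 higher (0.0654%) and 0 lower (0%) with it.

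**Figure D1:**
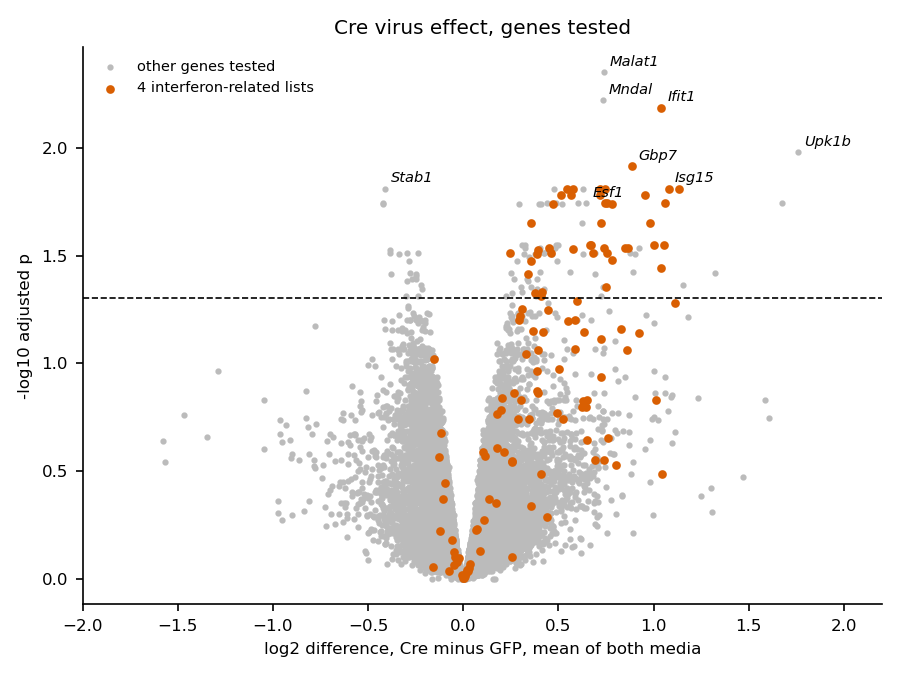
Each point is 1 of the 15285 genes tested, with the averaged log2 difference of Cre minus GFP virus on the x axis and -log10 of the adjusted p on the y axis. Points above the dashed line are called at an adjusted p under 0.05. Genes of the 4 interferon-related lists are in orange, and 43 of them lie above the line, all on the right.

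These counts leaned on the preparation block and on single libraries. Without preparations 1, 2, 3 and 4 in turn the fit called 0, 2, 2 and 165 genes higher and 0, 0, 0 and 52 lower, and without the block it called 0 and 0. Of the 100 and 20 genes, 82 and 14 were also called without preparation 4. With a block for each preparation within each medium, 524 genes were higher (3.43%) and 689 lower (4.51%), including all 100 and all 20. Leaving out 1 library gave 15 higher genes without GFP replicate 3, 39 without GFP replicate 1, 38 without GFP replicate 2, 23 without Cre replicate 1 and 42 without Cre replicate 3. With TGF-beta it gave 24, 16, 31 and 59 without GFP replicates 1 to 4, 19 without Cre replicate 2 and 160 without Cre replicate 1, and the 5 other omissions gave 86 to 136. Lower genes then numbered 72, 30 and 34 without Cre replicates 1, 3 and 4 with TGF-beta, 19 without Cre replicate 2, 14 without GFP replicate 4, and 1 to 8 without any of the 11 others. The median of the interferon effectors described next stayed between 0.52 and 0.70 in all these omissions.

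The largest group was the interferon effectors, the antiviral proteins of the OAS, IFIT, MX and ISG15 families. Of 53 tested, 23 rose and 0 fell, and 52 were above 0, with a median log2 difference of 0.59 against 0.00 over all genes tested. The list's median was above 0 in each of the 8 pairs, from 0.25 to 1.18. Ifit1, which binds viral RNA that lacks host cap marks, was at 59.5, 85.3, 86.5 and 126 CPM in GFP libraries and at 150, 143, 248 and 205 CPM in Cre libraries. In the medium with TGF-beta the levels were 16.3, 11.4, 22 and 33.1 CPM with GFP virus and 24.7, 34.7, 42.3 and 61.5 with Cre virus. Every Cre library without TGF-beta lay above every GFP library, while with TGF-beta the groups overlapped and each preparation's own pair still went up. The rise was 1.04 ± 0.12 (log2 ± SE, adjusted p = 0.00651 by edgeR's quasi-likelihood test), 2.06 fold, and it kept its call in all 16 fits that left out 1 library.

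Isg15, a ubiquitin-like protein joined to other proteins during antiviral defence, was at 58.7, 98.0, 87.2 and 145 CPM with GFP virus and at 179, 197, 281 and 228 CPM with Cre virus. With TGF-beta it was at 45.7, 41.3, 46.0 and 130 CPM and at 80.4, 91.0, 94.5 and 202 CPM. The groups did not overlap without TGF-beta, and with it the GFP library of preparation 4 lay above the Cre libraries of preparations 1 to 3. Isg15 rose by 1.08 ± 0.16 (adjusted p = 0.0155), called in 16 of 16 omissions of a library. The enzymes that attach and remove it rose too, the activating enzyme Uba7 by 0.47, the conjugating enzyme Ube2l6 by 0.52, the ligase Herc6 by 0.72 and the protease Usp18 by 0.87.

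Bst2, which tethers budding virus particles to the cell, was at 120, 148, 111 and 329 CPM with GFP virus and at 321, 247, 372 and 369 with Cre virus. In TGF-beta it was at 64.4, 74.5, 72.0 and 248 CPM with GFP virus and at 121, 142, 156 and 397 with Cre virus. Bst2 was higher with Cre in all 8 pairs, though the GFP library of preparation 4 lay within the Cre range in both media. It rose by 0.98 ± 0.17 (adjusted p = 0.0222) and was called in 8 of 16 omissions.

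Of the other effectors, the RNA sensor synthetases Oas1g and Oas1a rose by 1.13 and 0.72, Ifit3 by 1.06 and its near-identical copy Ifit3b by 1.00. Ifi44 rose by 1.04, Rtp4 by 0.85, the growth regulators Slfn2 and Slfn8 by 0.75 and 0.67, the nucleotide kinase Cmpk2 by 0.76, the nucleic acid sensor Zbp1 by 0.78 and Xaf1 by 0.74. Reads of Ifit3 and Ifit3b, and of Oas1a and Oas1g, may have been split or shared between the copies by the counting. Among those that did not pass, Rsad2 was at 1.11 (adjusted p = 0.0525), Mx1 at 0.44 (adjusted p = 0.52), Ifitm2 at 0.00 and Ifi27, the 1 member below 0, at -0.12. With preparation 4 left out 37 of the 53 were called higher, and with the block within each medium 36 were. Of all 15285 genes these fits called 165 and 524 higher.

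**Figure D2:**
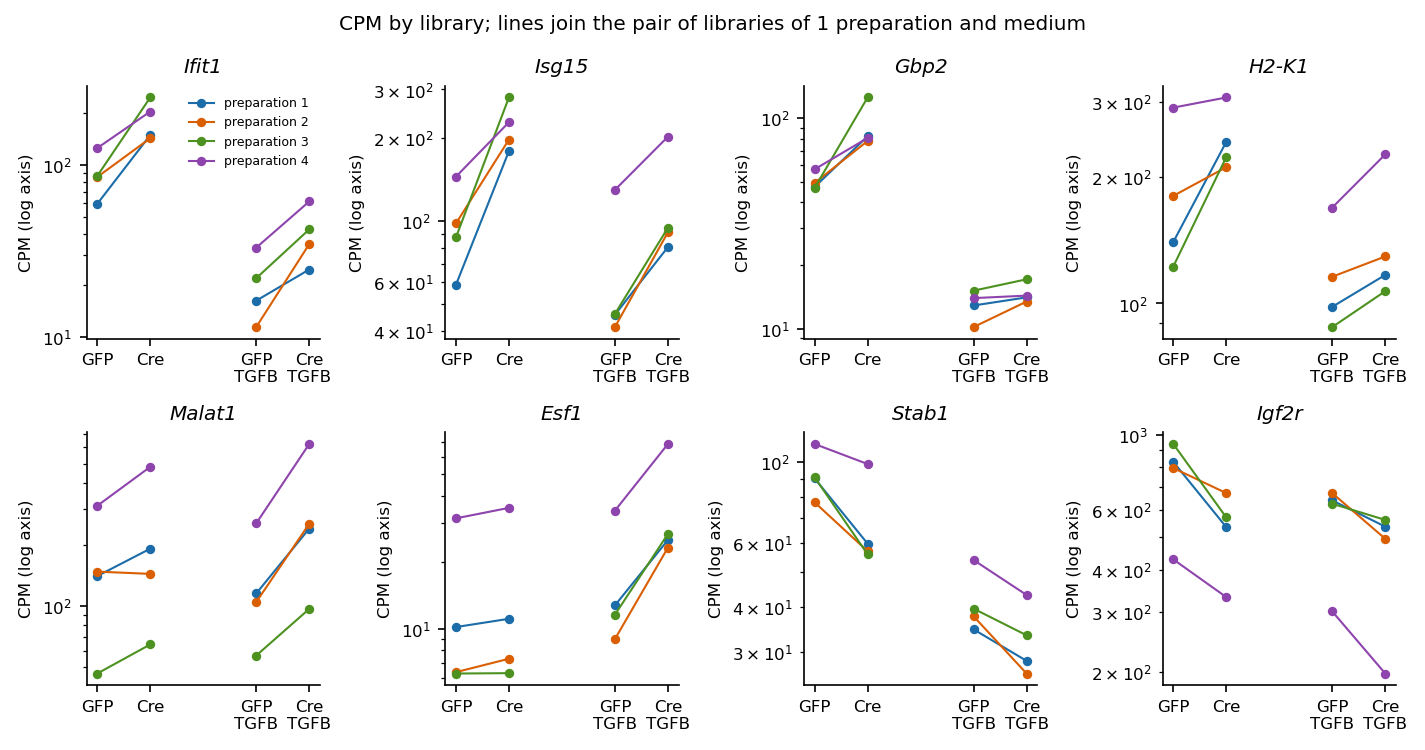
CPM (log axis) of 8 genes in each of the 16 libraries, where each line joins the GFP and Cre libraries of 1 preparation in 1 medium and the colour marks the preparation. Lines for Ifit1, Isg15, Gbp2, H2-K1 and Esf1 rise in all 8 pairs and those for Malat1 in 7, and lines for Stab1 and Igf2r fall in all 8. Ifit1 and Gbp2 lie lower in TGF-beta with either virus, and preparation 4 is often set apart.

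The guanylate-binding proteins and immunity-related GTPases, large GTPases that attack the membranes around intracellular pathogens, formed the second group, with 7 of 16 higher, 0 lower and a median of 0.56. Gbp2 was at 47.2, 49.3, 46.7 and 57.2 CPM in GFP libraries and at 82.2, 78.1, 126 and 80.7 CPM in Cre libraries. With TGF-beta it was at 12.9, 10.2, 15.2 and 14 CPM with GFP virus and at 14.1, 13.4, 17.2 and 14.3 with Cre virus. The groups were well apart without TGF-beta and overlapped with it. The averaged rise of 0.52 ± 0.08 (adjusted p = 0.0165) thus joined a difference of 0.84 ± 0.11 without TGF-beta and one of 0.19 ± 0.12 with it. The test of the difference between the media did not call it.

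Gbp7 was at 10.8, 6.01, 9.45 and 23 CPM with GFP virus and at 15.9, 10.5, 17.9 and 28.0 with Cre virus. With TGF-beta it was at 3.35, 2.26, 3.16 and 7.16 CPM and at 6.78, 6.40, 9.92 and 9.98 CPM. Gbp7 was higher with Cre in 8 of 8 pairs, with overlapping groups in both media, and rose by 0.88 ± 0.12 (adjusted p = 0.0122). Gbp3 rose by 0.96, Igtp by 0.72, Tgtp2 by 0.78, Irgm2 by 0.36 and Ifi47 by 0.38, while Gbp4 (1.01, adjusted p = 0.15) and Iigp1 (0.86, adjusted p = 0.0867) did not pass. Tgtp2 has a near-identical copy, Tgtp1, at 0.80 (adjusted p = 0.30), and the split of reads between them is uncertain.

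Among 32 genes of interferon signalling and nucleic acid sensing, 6 rose and 0 fell, and the median was only 0.05. Among them were the transcription factor Irf7, the RNA sensor Ifih1, and Ifi203, Ifi204 and Ifi205 of the interferon-inducible p200 family. Ifih1 rose by 0.58, and Ifi203, Ifi204 and Ifi205 by 0.74, 0.67 and 0.75. Irf7, the factor that amplifies interferon production, rose by 1.06 ± 0.19 (adjusted p = 0.0282), with its lowest GFP and Cre libraries at 58.2 and 171 CPM without TGF-beta and its highest at 239 and 298. Its call held in 7 of 16 omissions of a library. The p200 gene Mndal, outside the fixed list, rose by 0.73 ± 0.09 (adjusted p = 0.00599), in 8 of 8 pairs and in all 16 omissions. P200 genes are alike in sequence, so reads of one may have been counted to another.

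The receptors and kinases upstream did not pass the test. Ifnar1 was at -0.15 (adjusted p = 0.0958), Ifnar2 at 0.02, Ifngr1 at -0.10, Jak1 at -0.13, Jak2 at 0.00 and Tyk2 at -0.04. Neither did the DNA sensor Cgas at 0.02, its adaptor Tmem173 (STING) at -0.06, the adaptor Mavs at -0.12 or the kinase Tbk1 at -0.05. Stat2 was at 0.45 (adjusted p = 0.0568), Irf9 at 0.20 and the feedback inhibitor Socs1 at 0.25, none called.

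Class I antigen presentation moved by less. Of 24 genes 7 rose and 0 fell, with a median of 0.35. H2-K1, a classical class I heavy chain, was at 140, 180, 122 and 292 CPM in GFP libraries and at 242, 211, 223 and 308 in Cre libraries. In TGF-beta H2-K1 was at 98.2, 116, 87.9 and 169 CPM with GFP virus and at 117, 129, 107 and 226 with Cre virus. H2-K1 groups overlapped in both media, since preparation 4 lay high in each group, and the rise of 0.39 ± 0.08 (adjusted p = 0.0311) held in 6 of 16 omissions and was not called with the length and GC trend removed (0.36). The peptide transporter subunits Tap1 and Tap2 rose by 0.34 and 0.24, the immunoproteasome subunit Psmb10 by 0.46, the proteasome activator subunit Psme2 by 0.36, and H2-T22 and H2-T23 by 0.41 each. B2m, the light chain, was at 0.30 (adjusted p = 0.0605) and Psmb8 and Psmb9 at 0.63 and 0.64, not called. Heavy chain genes of the H2 family share sequence, and reads may be shared between them.

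Of 28 chemokine and cytokine genes 1 rose, Cxcl10, a T cell attractant induced by interferon. It rose by 1.15 ± 0.24 (adjusted p = 0.0434) from a mean of 1.55 CPM to 4.37 CPM, and the median of the list was 0.02. Together the 4 interferon-related lists held 43 of the 100 higher genes, out of 125 tested. Others among the 100, named after their values were seen, are also known as interferon-induced: Ddx60 (0.95), Apol9a and Apol9b (0.90 and 0.92, near-identical copies), Trim12c (0.63), Ifi211 (0.48), Nmi (0.63), Sp100 (0.38), Sp110 (0.49) and Ogfr (0.30). In all 42 of the 100 stood in no list.

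The promoters of the higher genes were searched for the core of the interferon-stimulated response element, GAAA and GAAA with 2 bases of any kind between them, on both strands, in the 250 bases before and 50 bases after each start (RefSeq, GRCm38.p6). Of the 100 higher genes 75 had a promoter in the table, and 27 of these (36%) held a match, against 3.84% of the 10764 tested genes with a promoter. Within the interferon-related lists it was 19 of 35 called genes (54.3%) and 22 of 64 that were tested and not called (34.4%), and among called genes outside them 8 of 40 (20%). These 8 were Cxcl10, Mndal, Ddx60, Apol9a, Apol9b, Trim12c, Ifi211 and Ogfr, all described above as interferon-induced or of the interferon-inducible p200 family. None of the 17 lower genes with a promoter held one. Promoters of 4 genes described above follow, with the matched bases in capitals. A match on the other strand reads TTTC and TTTC, and where matches overlap the capitals run on.
Ifit1 (chr19:34640639-34640938, plus strand): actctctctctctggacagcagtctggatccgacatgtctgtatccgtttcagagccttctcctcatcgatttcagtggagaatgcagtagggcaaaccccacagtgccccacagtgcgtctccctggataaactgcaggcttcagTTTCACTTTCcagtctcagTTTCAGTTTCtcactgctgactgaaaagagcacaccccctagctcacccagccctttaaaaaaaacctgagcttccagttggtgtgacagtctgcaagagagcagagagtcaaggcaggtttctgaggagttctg
Isg15 (chr4:156200769-156201068, minus strand): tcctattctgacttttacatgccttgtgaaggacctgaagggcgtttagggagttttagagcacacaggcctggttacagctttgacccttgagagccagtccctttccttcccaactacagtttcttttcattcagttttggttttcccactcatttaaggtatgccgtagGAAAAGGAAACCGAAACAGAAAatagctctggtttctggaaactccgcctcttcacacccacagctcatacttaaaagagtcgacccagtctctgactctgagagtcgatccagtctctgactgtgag
Bst2 (chr8:71537423-71537722, minus strand): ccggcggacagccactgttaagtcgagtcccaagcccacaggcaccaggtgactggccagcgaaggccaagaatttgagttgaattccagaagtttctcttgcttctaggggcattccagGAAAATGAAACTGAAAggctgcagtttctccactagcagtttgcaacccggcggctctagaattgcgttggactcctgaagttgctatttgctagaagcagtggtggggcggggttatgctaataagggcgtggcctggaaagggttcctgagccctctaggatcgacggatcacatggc
Gbp2 (chr3:142620413-142620712, plus strand): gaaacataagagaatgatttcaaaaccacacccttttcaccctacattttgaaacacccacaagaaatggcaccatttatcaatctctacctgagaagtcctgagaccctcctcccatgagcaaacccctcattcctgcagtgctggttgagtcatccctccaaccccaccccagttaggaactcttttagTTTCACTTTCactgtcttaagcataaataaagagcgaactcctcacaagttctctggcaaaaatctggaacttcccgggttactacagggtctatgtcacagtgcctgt

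In these windows Ifit1 has 2 separate matches, starting 104 and 85 bases before the transcript start, and Gbp2 has 1 at 59 bases. Isg15 has 3 overlapping matches and Bst2 has 2. A match is a string of letters and not binding that was measured: over all tested genes with the core the median log2 difference was 0.04. The gamma-activated site, spelled TTCNNNGAA, was in 10 of 75 higher promoters (13.3%) against 8.27% of all, and a TATA box, spelled TATAAA, in 12 (16%) against 8.95%. A heat shock element, built of GAA, TTC and GAA each 2 bases apart, was in 2 of the 75 (2.67%) against 0.548%. Matches of different motifs were counted separately and may overlap.

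Among nuclear RNA and RNA-processing genes 6 of 45 rose, 0 fell and the median was 0.06. Malat1, a long noncoding RNA kept in nuclear speckles, had the lowest adjusted p of all genes. It was at 140, 147, 46.4 and 310 CPM in GFP libraries and at 191, 144, 64.5 and 482 in Cre libraries. In TGF-beta Malat1 was at 115, 104, 56.9 and 254 CPM with GFP virus and at 240, 253, 96.5 and 624 with Cre virus. Preparations differed more from each other than the viruses did, so the groups overlapped, but the Cre library was higher in 7 of 8 pairs, all but preparation 2 without TGF-beta. The rise was 0.74 ± 0.08 (adjusted p = 0.00446) and was called in 16 of 16 omissions of a library and in 3 of 4 omissions of a preparation. The RNA-processing genes Luc7l3, Ppig, Cir1, Rbm25 and Sltm rose by 0.49, 0.50, 0.44, 0.39 and 0.32. Other speckle and splicing members did not pass, with Neat1 at 0.03, Son at -0.09, Srrm2 at -0.26 and Srsf1 at -0.01.

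Of 39 nucleolar and ribosome biogenesis genes 3 rose and 0 fell, with a median of 0.05. They were Esf1, a factor of pre-rRNA processing (0.65), Nop58, a core protein of box C/D particles (0.40), and Dnajc2, a ribosome-associated chaperone (0.40). Esf1 was at 10.2, 6.37, 6.28 and 31.6 CPM with GFP virus and at 11.1, 7.33, 6.31 and 35.2 with Cre virus. In TGF-beta it was at 12.8, 8.99, 11.6 and 34.2 CPM with GFP virus and at 25.2, 23.3, 26.8 and 68.5 with Cre virus. Nearly all of the Esf1 rise came from the medium with TGF-beta, where preparations 1 to 3 sat between 23.3 and 26.8 CPM with Cre virus and between 8.99 and 12.8 with GFP virus. Ncl and Npm1, abundant nucleolar proteins, were at 0.35 and 0.28 and not called (adjusted p = 0.058 and 0.0861).

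Hsp90aa1, the inducible cytosolic HSP90, was the 1 gene called among 30 cytosolic chaperones, whose median was 0.05. It was at 203, 104, 153 and 614 CPM with GFP virus and at 204, 139, 166 and 617 with Cre virus, and in TGF-beta at 247, 161, 229 and 703 CPM and at 386, 299, 493 and 997 CPM. Hsp90aa1 was higher with Cre in 8 of 8 pairs. Without TGF-beta the levels were close in preparations 1 and 4, and rose from 104 to 139 CPM in preparation 2 and from 153 to 166 in preparation 3. The averaged rise of 0.47 ± 0.09 (adjusted p = 0.0311) held in 5 of 16 omissions. The heat shock genes Hspa1a at -0.34, Hspa1b at -0.16, Hspb1 at 0.10 and Dnajb1 at -0.02 did not pass, nor did the constitutive Hsp90ab1 at 0.04.

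Fitted effects were also set side by side by medium. Without TGF-beta the interferon effectors had a median of 0.74 and with it 0.44, and the guanylate-binding list 0.78 and 0.33. The nuclear RNA list had medians of 0.01 and 0.10, the nucleolar list 0.05 and 0.06, and the chaperone list 0.06 and 0.04. Among called genes of these 3 lists, picked after their values were seen, Esf1 was at 0.13 ± 0.16 without TGF-beta and 1.16 ± 0.15 with it, Malat1 at 0.38 ± 0.12 and 1.10 ± 0.12, Luc7l3 at 0.17 ± 0.12 and 0.81 ± 0.12, and Hsp90aa1 at 0.13 ± 0.13 and 0.81 ± 0.13. The difference between media was itself tested and called for 0 genes (0%) by edgeR's quasi-likelihood test, with 501 at an unadjusted p under 0.05, and for 0 by DESeq2 and limma-voom. With the block within each medium it was called for 6 genes (0.0393%), all larger with TGF-beta: Esf1, the kinase Rock1, the cohesin and condensin subunits Smc3 and Smc4, the mRNA export factor Thoc2 and the RNA-binding protein Ssb. Their median GC content was 39.6%, against 49.8% over genes tested. Rock1 was at -0.08 without TGF-beta and 1.14 with it, and Thoc2 at -0.12 and 1.13. The Cre effect had a Spearman rho with GC content of 0.09 without TGF-beta and -0.25 with it, and the part of GC content in these 6 was not tested.

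**Figure D3:**
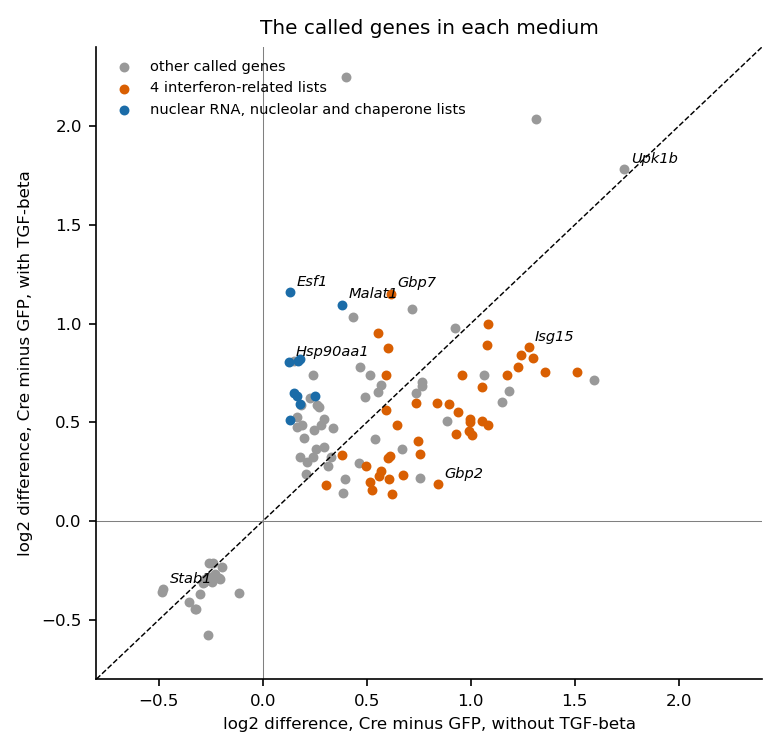
Each point is 1 of the 120 called genes, with the fitted log2 difference of Cre minus GFP virus without TGF-beta on the x axis and with TGF-beta on the y axis, and the dashed line marks equal effects. Genes of the 4 interferon-related lists (orange) lie mostly below the line, and those of the nuclear RNA, nucleolar and chaperone lists (blue) lie above it. The difference between media was called for 0 of them in this fit.

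The highest log2 difference among called genes was that of Upk1b, a uroplakin of mesothelial and bladder surfaces, at 1.76 ± 0.24 (adjusted p = 0.0106), though it stayed near the limit of detection. Its libraries ran from 0.301 to 0.659 CPM with GFP virus and from 0.862 to 3.31 with Cre virus, and in TGF-beta from 0.110 to 0.234 and from 0.414 to 0.751 CPM. The groups did not overlap in either medium, and the call held in 16 of 16 omissions of a library, on 3 to 74 counts per library. Of 7 mesothelial markers tested Upk1b was the only 1 called, with Upk3b at 0.12 (adjusted p = 0.85). Of the 7, 5 were above 0, with a median of 0.12. The summed level of the list was higher with Cre in 4 of 8 pairs, but most of it was Tbx18 (18.8 to 40.3 CPM with GFP virus).

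The 20 lower genes had no common list. Stab1, an endocytic scavenger receptor that takes up hyaluronan and other ligands, was at 90.3, 77.5, 90.9 and 112 CPM in GFP libraries and at 59.7, 56.9, 55.8 and 98.8 in Cre libraries. With TGF-beta it was at 34.7, 37.7, 39.5 and 53.8 CPM and at 28.4, 26.2, 33.4 and 43.1 CPM. Stab1 was lower with Cre in 8 of 8 pairs. In both media preparations 1 to 3 were apart, and the groups overlapped once preparation 4 was included. Its log2 difference was -0.41 ± 0.06 with an adjusted p of 0.0155, a call that held in 16 of 16 omissions of a library and in 1 of 4 omissions of a preparation. With the length and GC trend removed it was -0.26 and no longer called (adjusted p = 0.0604). Stab1 is also found on macrophages, whose 14 tested markers had a median of -0.02 with 0 called and 7 above 0. Their summed level was 483 to 1753 CPM with GFP virus and 454 to 1875 with Cre virus, higher with Cre in 3 of 8 pairs. Lyz2 made up the largest part of that sum. Lcp1, a leukocyte gene outside the marker list, was also among the 20 lower genes, at -0.25. The part of macrophages in the Stab1 result was not tested.

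Igf2r, which carries lysosomal enzymes and clears IGF2, was at 831, 797, 938 and 430 CPM with GFP virus and at 534, 673, 571 and 333 with Cre virus. In TGF-beta Igf2r was at 640, 672, 626 and 302 CPM and at 536, 494, 561 and 198 CPM. Among preparations 1 to 3 the groups were apart in both media, and preparation 4 lay low in each. Igf2r fell by 0.42 (SE 0.07, adjusted p = 0.0183). The adhesion molecule Nfasc fell by 0.42, the transporter Slc38a7 by 0.38, the transcription factor Atf7 by 0.38, and the phosphatase Phlpp2 by 0.34. The largest RNA polymerase II subunit Polr2a fell by 0.29, the adhesion protein Kirrel by 0.30, the calcium sensor Stim1 by 0.24, Ago1, of the miRNA machinery, by 0.27, and Sel1l, of endoplasmic reticulum-associated degradation, by 0.25.

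Lower genes came from long transcripts. Their median length, by the longest annotated transcript, was 6943.5 bases, against 2867.5 for the higher genes and 3134 over the 15259 tested genes with a length. Among 10 groups of genes ordered by length, the median log2 difference went from 0.15 in the shortest (56 to 977 bases) to -0.12 in the longest (6577 bases and more), which held 11 of the 20 lower genes. The Spearman rho of the Cre effect with length was -0.40 across genes, which are not independent replicates. By pair it was -0.42, -0.02, -0.17 and -0.41 for preparations 1 to 4 without TGF-beta and -0.08, -0.23, 0.16 and -0.51 with it, so 1 of 8 pairs went the other way. With each library's trend on length and GC content removed, 112 genes were called higher and 10 lower, and 71 of the 100 and 3 of the 20 were among them. Igf2r kept its call at -0.26, while Nfasc (-0.28), Kirrel (-0.16) and Polr2a (-0.16) lost theirs. With the block within each medium as well, 538 were higher (3.52%) and 296 lower (1.94%), among them 84 of the 100 and 13 of the 20.

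**Figure D4:**
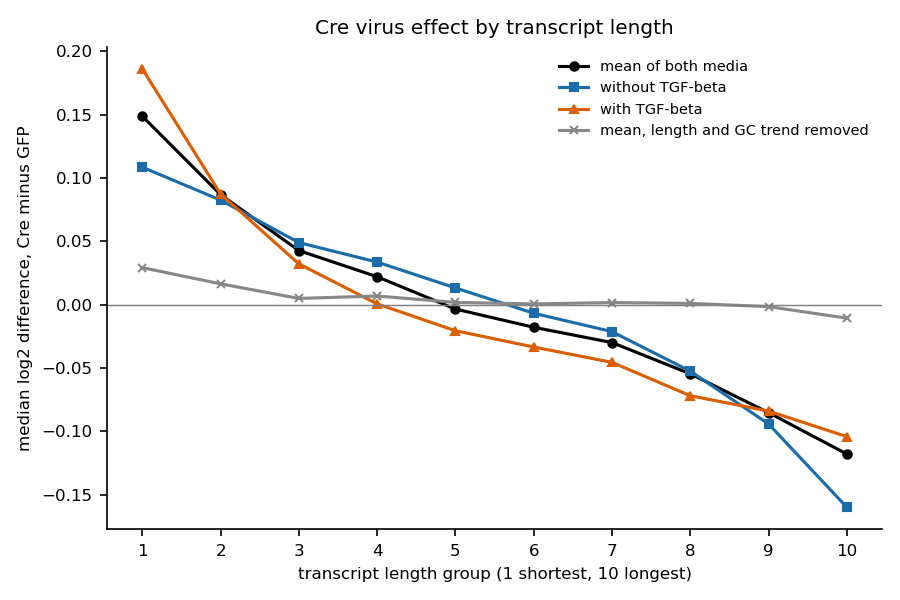
Median log2 difference of Cre minus GFP virus (y axis) in 10 groups of about 1526 genes each, ordered by transcript length (x axis), for the mean of both media, each medium and the mean after each library's trend on length and GC content was removed. The mean falls from 0.15 in the shortest group to -0.12 in the longest. With the trend removed the groups lie between 0.03 and -0.01.

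All 82 ribosomal protein genes, of median length 1076.5 bases, were above 0 in the fit, with a median of 0.16, and 1 was called, Rpl21. With the trend removed their median was 0.09. The block within each medium called 23 of the 82 higher and 0 lower, and 25 higher and 0 lower with the trend removed as well. Over all genes tested these 2 fits called 3.43% and 3.52% higher, and 4.51% and 1.94% lower. Of 74 nuclear-encoded oxidative phosphorylation genes 70 were above 0, with a median of 0.14 (0.06 with the trend removed), and 1 was called, the electron carrier Cycs at 0.29 ± 0.05 (adjusted p = 0.0183), which was at 0.19 and not called with the trend removed. Without TGF-beta Cycs ran from 32.4 to 54.4 CPM with GFP virus and from 38.3 to 61.4 with Cre virus. With TGF-beta it ran from 64.6 to 96.1 CPM with GFP virus and from 75.1 to 126 with Cre virus. The groups overlapped in both media, and Cycs was higher with Cre in 8 of 8 pairs. Of the 74 genes, the block within each medium called 14 higher and 0 lower, and 8 higher and 0 lower with the trend removed as well. In the pair of preparation 3 with TGF-beta the ribosomal and oxidative phosphorylation medians were below 0, at -0.08 and -0.06. The proteasome list had a median of 0.13 (0.06 with the trend removed) with Psma3 alone called (0.22, and 0.11 and not called with the trend removed), and the 15 mitochondrially encoded genes, short at a median of 955 bases, had a median of -0.01 with 0 called. The median of this last list was -0.24 with the trend removed. Of the 15, the block within each medium called 3 higher and 0 lower, and with the trend removed as well 0 higher and 7 lower. Of 31 proteasome genes these fits called 6 higher and 0 lower, and 4 higher and 1 lower.

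**Figure D5:**
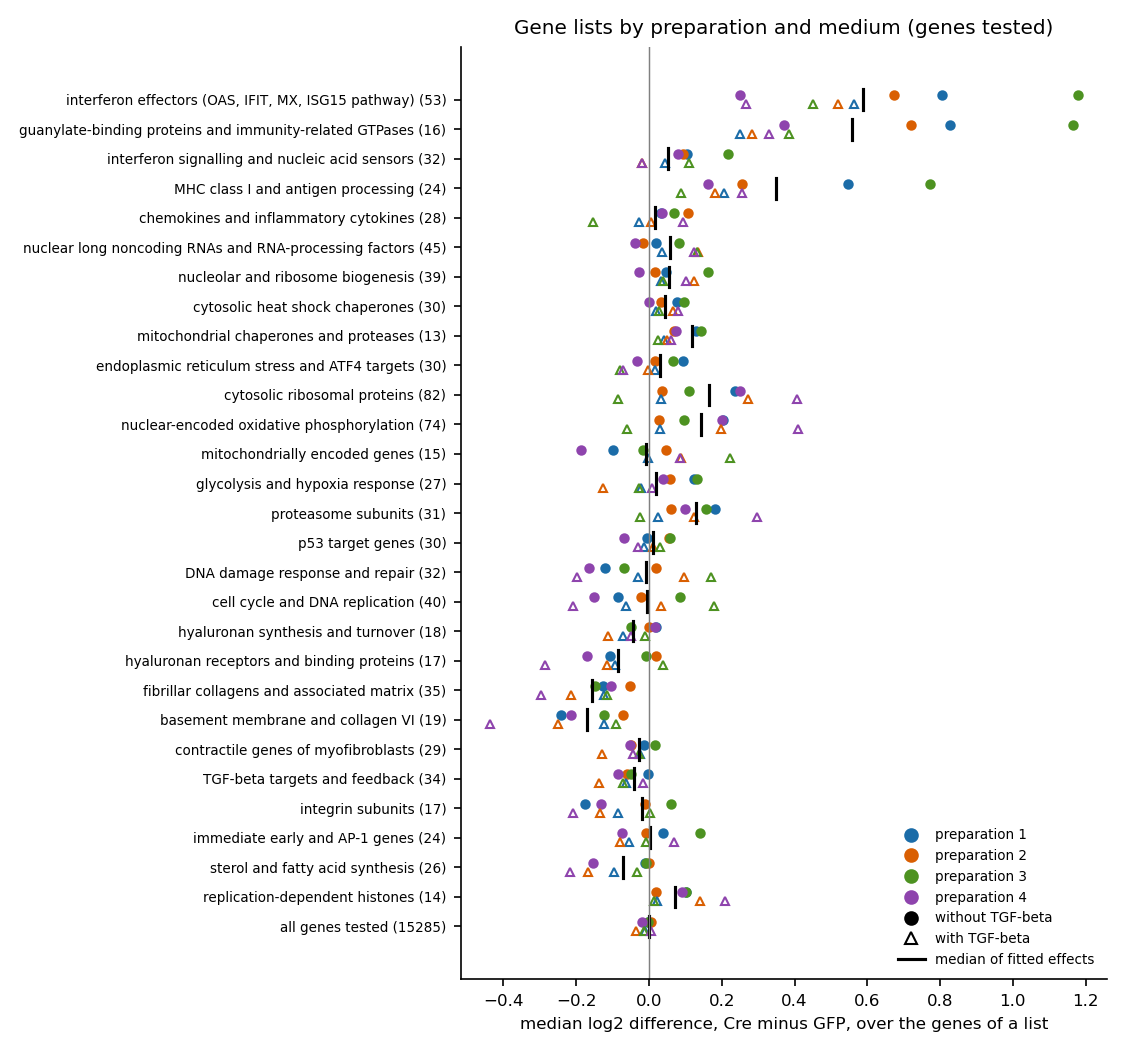
Median log2 difference of Cre minus GFP virus (x axis) over the tested genes of each of 28 lists and of all genes (y axis, number tested in brackets), shown for each of the 8 pairs by preparation (colour) and medium (filled circles without TGF-beta, open triangles with it). The black bar is the median of the fitted effects. The interferon effectors, guanylate-binding proteins and class I genes lie above 0 in all 8 pairs, and the 2 matrix lists below 0 in all 8.

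The matrix lists lay on the other side. Of 35 fibrillar collagen and associated matrix genes 0 were called, 5 were above 0 and the median was -0.16, with each pair's median below 0, from -0.05 to -0.30. With the length and GC trend removed the median was -0.08. With the block within each medium 16 were lower and 0 higher, and 9 were lower when the length and GC trend was also removed. Over all genes tested these fits called 4.51% and 1.94% lower. The median length of these genes was 5223 bases. Fn1, the fibronectin of the provisional matrix, was at 11989, 13745, 15986 and 5902 CPM in GFP libraries and at 8332, 12738, 11620 and 4489 in Cre libraries. With TGF-beta Fn1 was at 15115, 17537, 15644 and 5501 CPM and at 12887, 12894, 14231 and 3161 CPM. It was lower with Cre in 8 of 8 pairs, with overlapping groups, and its difference of -0.38 ± 0.10 did not pass (adjusted p = 0.0953). Without preparation 4 the difference was -0.31 and Fn1 was called lower, as 4 of the 35 genes and 52 of all 15285 then were.

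Col1a1 was below 0 in 8 of 8 pairs at -0.14 ± 0.05 (adjusted p = 0.20) and Col3a1 at -0.20 ± 0.07 (adjusted p = 0.17), neither called, while Postn was at -0.16 ± 0.36. The block within each medium called all 3 lower, at -0.14, -0.20 and -0.19. With the trend removed as well Col1a1 (-0.02) and Col3a1 (-0.09) were not called and Postn was (-0.30). The basement membrane and collagen VI list gave 0 calls of 19 and a median of -0.17 (-0.06 with the trend removed), with Hspg2, perlecan, at -0.38 (adjusted p = 0.0854). The block within each medium called 12 of the 19 lower and 0 higher, and 5 lower with the trend removed as well. Contractile genes of myofibroblasts gave 0 calls of 29 and a median of -0.03, with Acta2 at -0.05 ± 0.16, and TGF-beta targets gave 0 of 34 and a median of -0.04. With the block within each medium 4 contractile genes were lower and 0 higher, and 9 TGF-beta targets lower and 2 higher. Over all genes tested that fit called 4.51% lower and 3.43% higher, and 1.94% lower and 3.52% higher with the trend removed as well.

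In this fit Stab1 was the only hyaluronan gene called. Of 18 for synthesis and turnover 0 were called and the median was -0.04, with Has1 at 0.09, Hyal2 at 0.03, Cemip at -0.26 and Cemip2 at -0.12. Of 17 receptors and binding proteins 1 fell, Stab1, and the median was -0.09, with the receptor Cd44 at -0.09 ± 0.07 and the proteoglycan Vcan at -0.19. With the block within each medium 1 of the 18, Cemip, was lower, and with the trend removed as well 3 of the 18 were, Has2 and Cemip among them. Of the 17, these fits called 2 lower each. Over all genes tested they called 4.51% and 1.94% lower. Has3 had too few counts to test.

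Genes of damage and growth were near 0. The p53 targets gave 0 calls of 30 with a median of 0.01, the DNA damage response 0 of 32 with -0.01, and cell cycle and replication 0 of 40 with -0.01. For endoplasmic reticulum stress, 1 of 30 was called, Sel1l, and the median was 0.03, and immediate early genes gave 0 of 24 with a median of 0.00. Among 28 pathway lists, calls in both directions occurred in 0.

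Markers of other cell types were measured beside these results. Fibroblast markers gave 0 calls of 12 with a median of -0.03, although their summed level, carried by the collagens, was lower with Cre in all 8 pairs. Endothelial markers gave 0 of 12 with a median of -0.10 and pericyte and smooth muscle markers 0 of 8 with -0.22, the latter's sum being lower with Cre in 8 of 8 pairs. The part of these cells in the matrix and Stab1 results was not tested. In such bulk samples fewer cells of a type and less RNA per cell cannot be told apart.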

How the data were processed

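RNA was measured in 16 libraries of mouse cardiac fibroblasts. The values are raw counts of reads for each gene, deposited as a single table and not normalized. HTSeq 0.10.0, FastQC 0.10.1 and the build mm39 (GRCm39) are named in the submitters' processing notes. Which aligner, annotation and strand setting were used is not given in the sources used here. Symbols (52081 identifiers matched), transcript lengths and GC content came from GENCODE M21 (GRCm38), and promoters from RefSeq (GRCm38.p6).

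Each column was matched to its sample by its name, which joins the group label to the replicate number in the sample's title. FilterByExpr (minimum count 10, minimum total 15) kept 15285 genes with 99.9% of the counts and left 40129 untested. Library totals were 17.9 to 48.7 M counts. TMM factors were 0.908 to 1.12. Genes were tested in R 4.3.3 with the robust quasi-likelihood F test of edgeR 4.0.16 (with limma 3.58.1), using 1 mean per group and a block for the preparation (9 residual degrees of freedom). A gene was called where its Benjamini-Hochberg adjusted p was under 0.05. SE is the size of the log2 difference over the square root of F. Printed CPM are counts over the library's total in tested genes multiplied by its TMM factor. Pair differences used log2 CPM with a prior count of 2.

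Libraries with 1 number share a preparation code in the labels. Their deviations from group means correlated in all 24 such pairs (r from 0.323 to 0.838), against at most 0.292 in 72 other pairs. The biological coefficient of variation was 0.123 with the block and 0.254 without. No libraries of a group agreed within sampling noise (chi-square per gene of 6.59 or more).

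The comparison, its 36 gene lists and the naming rule were chosen with earlier results of these data known. Named genes were fixed hyaluronan, matrix and myofibroblast genes, the called genes with the largest changes, and the list members with the smallest adjusted p, and 23 genes shown by library were chosen after their values were seen. Alternatives were the fit without the block, a block within each medium, an additive model, DESeq2 1.42.0, limma-voom, RLE factors, other filters, thinning, removal of length and GC trends, and omission of libraries and preparations. In simulated data the test recovered 82% of 100 changes of 0.5 and 99% of 100 changes of 1 (log2) among 15148 genes, with 12 false calls. There each change was the same in every preparation and medium, preparations responded alike to the medium, and no length trend was present. These rates therefore need not hold for the real data.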

Additional observations from a re-analysis of the deposited data

Results flagged for a closer look

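Preparation 4 lay far from the 3 others in many groups. In the 92 groups of 4 libraries that the 23 genes shown by library form, a gap test at the 95% level marked 26 libraries. Of these 26, 25 were from preparation 4. Chance marks about 1 group in 20, but these groups are not independent. They share the same 16 libraries, and the genes were chosen after their values were seen. In GFP libraries preparation 4 stood high for Irf7 (239 CPM), Esf1 (31.6), Cycs (54.4) and Mndal (36.1), and in Cre libraries for Hsp90aa1 (617), Stab1 (98.8) and Esf1 (35.2). In GFP libraries with TGF-beta it stood high for Luc7l3 (63.9 CPM), Hsp90aa1 (702.6), Irf7 (88.4), Isg15 (130), Esf1 (34.2), Bst2 (248) and Cycs (96.1), and low for Col1a1 (8661) and Igf2r (302). In Cre libraries with TGF-beta it stood high for Luc7l3 (114 CPM), Irf7 (131), Isg15 (202), Esf1 (68.5), Bst2 (397), Cycs (126) and Mndal (11.7), and low for Col1a1 (7320) and Fn1 (3161). The other marked library was Cre replicate 3 for Gbp2 (126 CPM).

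For Smc3, a cohesin subunit, the Cre library was lower in all 4 preparations without TGF-beta and higher in all 4 with it, a difference between media of 0.76 on the log2 scale. For the tight junction gene Cldn3, at under 0.5 CPM on average, it went from higher to lower, a difference of -1.79. Neither difference between media passed edgeR's quasi-likelihood test (adjusted p = 1.00 for both). With the block within each medium Smc3 passed (adjusted p = 0.0295) and Cldn3 did not (0.59).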

How the results depend on the processing

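Counts of called genes moved with the fit. For higher and lower genes, 100 and 20 with all libraries and the preparation as a replicate block, the fit with no replicate block gave 0 and 0, with 464 genes at an unadjusted p under 0.05. The replicate block within each medium gave 524 and 689, DESeq2 gave 294 and 281, limma-voom gave 63 and 15, no filter gave 170 and 51, thinning every library to the smallest gave 95 and 13, and removal of the length and GC trend gave 112 and 10. Removal of that trend with the block within each medium, an alternative chosen after seeing the data, gave 538 and 296. The cause of these moves was not tested. Leaving out replicates gave 0 to 165 higher and 0 to 72 lower genes. In the difference between media 0 genes were called, apart from 6 with the block within each medium and 15 with the trend removed as well. The Has2 difference stayed below 0, from -0.11 to -0.25 in every fit, and passed only in that last one (-0.25). The median of the interferon effectors stayed at 0.52 to 0.70 in all 31 alternatives. All 56 named genes that were called kept their direction in all 31 alternatives, and all 56 lost their call without the block. The limits are 4 preparations, of which 1 stood apart, unknown strand and aligner settings, and counts that do not separate exon 2 of Has2.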
